A study of Mus musculus with 204 samples.

Results

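The 7 genes described here encode subunits of the GABA-A receptor, the chloride channel opened by the transmitter GABA. They are the alpha subunit genes Gabra2, Gabra3, Gabra4 and Gabra5, the beta subunit genes Gabrb1 and Gabrb2, and the gamma subunit gene Gabrg3. They were taken by name from the 49492 gene rows of the table, and each was followed in all 204 cells. The cells were taken from VGLUT2-tdTomato mice, from the distal colon. In these mice a red fluorescent protein reports Slc17a6, the gene of the vesicular glutamate transporter VGLUT2. Muscle layers holding the myenteric plexus, the nerve network between them, were dissociated and cultured overnight, and single red cells were then picked by hand. How the reporter is driven, and from how many animals the cells came, is not given in the sources used here. The labels give 1 group, with no treatment, age, animal or culture named. Plates 1, 2 and 3 hold 66, 66 and 72 cells. Each plate therefore counted as 1 sample without replicates, cells were not treated as replicates, and no test was made. The columns of plates 2 and 3 share 1 tag and 1 running series of sequencer indices, and those of plate 1 carry another tag. The descriptions place plate 2 cells in library 1 and plate 3 cells in library 2. Because of the shared tag and index series, plates 2 and 3 may still not be independent of each other.

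A GABA-A receptor is a ring of 5 subunits around a chloride pore. GABA binds between a beta and an alpha subunit, benzodiazepines bind between an alpha and a gamma subunit, and gamma subunits help to hold receptors at synapses. A typical receptor therefore needs transcripts of all 3 classes in the same cell. In the gut wall a minority of enteric neurons make GABA, and GABA-A receptors on enteric neurons can excite them, because their chloride content is high.

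Cells held between 453052 and 14310732 reads in genes, and the plate medians were 3445516, 4571442 and 4690978. A transcript was called detected at 10 CPM (reads of the gene per 1000000 reads of the cell), which is between 4 and 5 reads in the shallowest cell. The labels call every cell a neuron, and 75% of the 204 carried at least 50% of a list of 13 pan-neuronal genes. These neuronal cells numbered 55, 44 and 54 on plates 1, 2 and 3. The other 51 cells carried less of the list, and 27 of them carried the smooth muscle list. Slc17a6 itself was detected in 89 neuronal cells. Intervals are exact Clopper-Pearson 95% intervals and cover counting error only, since cells of a plate may share an animal.

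How many neurons held a transcript of the 7 genes depended on the threshold, and 1 gene made up most of what was found. At 10 CPM at least 1 of the 7 was detected in 64 neuronal cells (41.8%, interval 33.9 to 50.1%). These were 19 of the 55 cells of plate 1, 19 of the 44 of plate 2 and 26 of the 54 of plate 3. The share was 69.3% counting any read and 19.6% at 50 CPM. None of the 51 other cells reached 10 CPM for any of them, which allows a share of up to 5.88%. Gabrg3 was detected in 49 neuronal cells, Gabrb1 in 11, Gabra2 and Gabrb2 in 4 each, Gabra5 in 3, Gabra3 in 2 and Gabra4 in 0. On a scale that allows genes to be compared, RPKM (CPM per kilobase of exon), Gabrg3 made up 71.1% of the summed level of the 7 genes over neuronal cells.

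**Figure D1:**
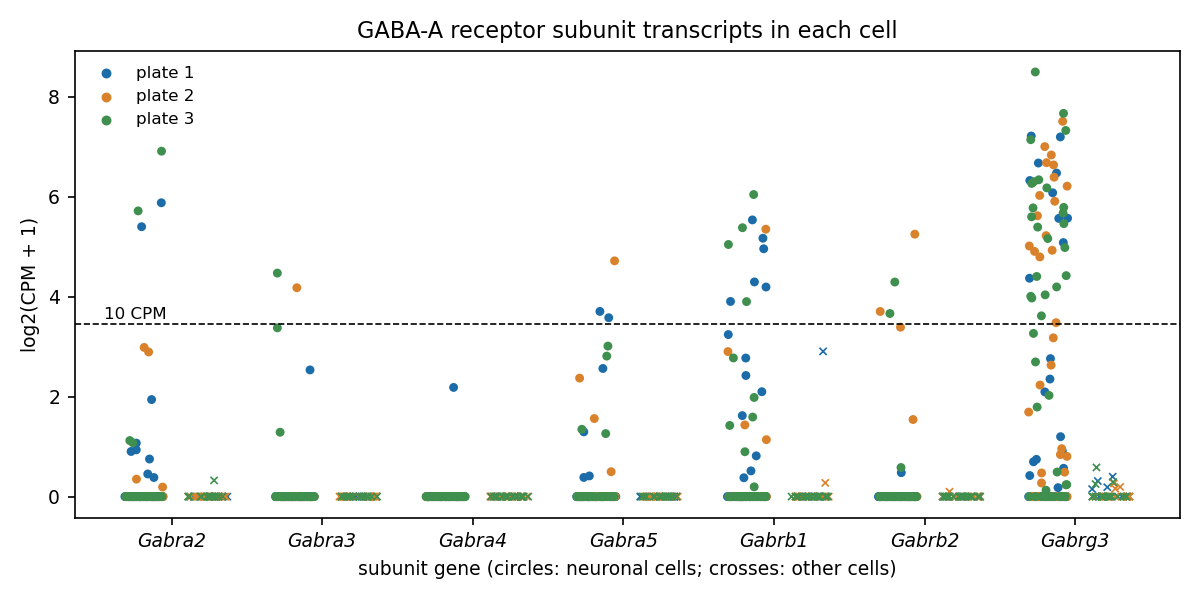
Level of each of the 7 subunit genes in each of the 204 cells, as log2(CPM + 1), with neuronal cells as circles, other cells as crosses, colour for the plate and a dashed line at 10 CPM. Gabrg3 is above the line in 49 neuronal cells, and none of the 51 other cells is above it for any of the genes.

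The mean level per neuronal cell was 1.96 RPKM for Gabrg3, with plate means of 1.21, 2.16 and 2.57 on plates 1, 2 and 3. Gabra2 came next at 0.251 RPKM (0.253, 0.0410 and 0.420 by plate) and then Gabrb1 at 0.189 RPKM (0.244, 0.0808 and 0.221). Gabra5 had a mean of 0.171 RPKM, Gabrb2 0.0943, Gabra3 0.0899 and Gabra4 0.00381. Each plate mean of Gabrg3 lay above every plate mean of the other 6 genes. Among Gabra2, Gabrb1, Gabra5, Gabrb2 and Gabra3, the plate means of neighbours in this order overlapped, so that their order was not separated from the spread between plates.

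Of the alpha subunits, which form 1 side of the GABA site, each was rare. Gabra2, an alpha subunit known from axon initial segments in the brain, lies on chromosome 5 from 70957597 to 71095849 on the minus strand (mm10). It was detected in 4 neuronal cells (2.61%, interval 0.717 to 6.56%), at 57.9 and 41.3 CPM in 2 cells of plate 1 and at 51.6 and 119.5 CPM in 2 cells of plate 3. No cell of plate 2 reached the threshold. These 4 cells stood apart from the rest: another 13 neuronal cells had Gabra2 reads below 10 CPM.

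Gabra5 encodes a subunit best known from extrasynaptic receptors of the hippocampus and lies on chromosome 7 from 57407672 to 57510059, minus strand. It was detected in 3 neuronal cells, at 12.0 and 11.0 CPM on plate 1 and at 25.3 CPM on plate 2. A further 11 neuronal cells had Gabra5 reads below the threshold, so its cells lie close to the detection limit. An annotated gene on the opposite strand overlaps Gabra5, and because the strand setting of the counting is not given, reads of the pair cannot be told apart.

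Gabra3, an alpha subunit of monoamine neurons and the thalamic reticular nucleus in the brain, lies on chromosome X from 72432681 to 72656848, minus strand. It was detected at 17.1 CPM in 1 cell of plate 2 and at 21.2 CPM in 1 cell of plate 3, and 3 more neuronal cells had reads below 10 CPM. Gabra4, an alpha subunit of thalamic and dentate neurons, lies on chromosome 5 from 71569749 to 71658308, minus strand. A single plate 1 cell held all 27 of its reads, at 3.55 CPM, and no neuronal cell reached the threshold, which allows a share of up to 1.96%. The annotated start of Gabra4 overlaps that of Gabrb1 by 196 bases on opposite strands, and that cell also had Gabrb1 reads, so the reads within the overlap cannot be assigned without strand.

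The 2 beta members, whose subunits form the other side of the GABA site, differed in which cells held them at 10 CPM. Gabrb1 lies on chromosome 5 from 71658113 to 72149037, plus strand, and was detected in 11 neuronal cells (7.19%, interval 3.64 to 12.5%). On plate 1 the 6 detected cells had 45.4, 35.0, 30.1, 18.6, 17.3 and 14.0 CPM. The 1 detected cell of plate 2 had 39.8 CPM, and the 4 of plate 3 had 65.0, 40.7, 32.0 and 14.0 CPM. Levels on plates 1 and 3 overlapped over most of their range, and 10 of the 11 cells also had Slc17a6.

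Gabrb2 encodes a beta subunit that is abundant in the adult brain, and lies on chromosome 11 from 42419757 to 42629028, plus strand. It was detected in 4 neuronal cells (2.61%, interval 0.717 to 6.56%), at 37.1 and 12.0 CPM on plate 2 and at 18.6 and 11.7 CPM on plate 3, and in no cell of plate 1. In these values, and not by a rule set beforehand, all 4 cells had Nos1 and no Chat, none had Slc17a6, and all 4 had Gabrg3. The pattern depends on the threshold. A Chat-only cell of plate 2 lay just under it, with 69 Gabrb2 reads at 9.48 CPM and no Gabrg3 read. At 1 RPKM that cell counted too, which gave 5 neuronal cells, and counting any read 4 Chat-only cells had Gabrb2. No cell held Gabrb1 and Gabrb2 together at 10 CPM.

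Gabrg3, the gamma member, lies on chromosome 7 from 56716465 to 57387188, minus strand, a span of 670724 bases. Plate 1 had it in 10 of 55 neuronal cells (18.2%, interval 9.08 to 30.9%), plate 2 in 16 of 44 (36.4%, interval 22.4 to 52.2%) and plate 3 in 23 of 54 (42.6%, interval 29.2 to 56.8%). Over plates that is 49 neuronal cells (32.0%, interval 24.7 to 40.0%), with 50.3% counting any read and 17.0% at 50 CPM. The plate 1 share lies below the intervals of both other plates, although its own interval overlaps theirs. Where detected, its level ran from 10.2 CPM through a median of 53.9 to 360.4 CPM. Few cells lay near the threshold, with 5 at 5 to 10 CPM and 7 at 10 to 20 CPM. Reads of Gabrg3 were also present in 10 of the 51 other cells, at no more than 0.499 CPM. Each plate was amplified as 1 pool, in which reads can be assigned to a wrong well. Among cells with a Gabrg3 read, 12 of 24, 16 of 29 and 26 of 34 on plates 1, 2 and 3 held above 1% of the highest Gabrg3 count of their plate.

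**Figure D2:**
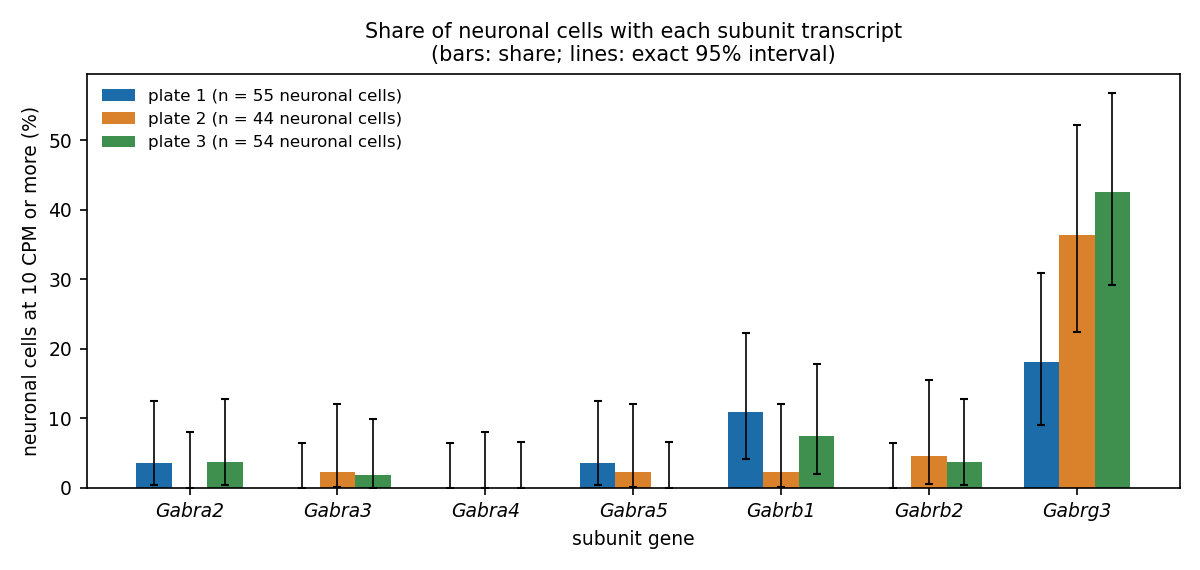
Share of neuronal cells at 10 CPM or more for each subunit gene on each plate, with bars for the share and lines for the exact 95% interval. Gabrg3 was detected in 18.2%, 36.4% and 42.6% of neuronal cells on plates 1, 2 and 3, and Gabra4 in none.

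The upstream sequences of the gamma member and of the 2 beta members are shown because their cells overlapped unequally at 10 CPM. There Gabrg3 was found in 4 of 4 Gabrb2 cells and in 2 of 11 Gabrb1 cells. Counting any read it was found in 6 of 8 and in 15 of 28, so the contrast was smaller. Each sequence is the 250 bases before an annotated RefSeq start (GRCm38.p6), 5′ to 3′ on the gene's strand, in lower case with matches in capitals. Searched on both strands were the GC box, spelled GGGCGG, the TATA box, spelled TATAAA, and the box named for its own letters, CCAAT.
Gabrg3, chr7:57387216-57387465, minus strand: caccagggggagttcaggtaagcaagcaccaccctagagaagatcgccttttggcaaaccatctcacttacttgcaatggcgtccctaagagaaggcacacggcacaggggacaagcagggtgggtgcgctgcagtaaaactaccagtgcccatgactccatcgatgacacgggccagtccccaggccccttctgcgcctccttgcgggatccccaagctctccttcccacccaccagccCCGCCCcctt
Gabrb2, first of 3 starts, chr11:42420190-42420439, plus strand: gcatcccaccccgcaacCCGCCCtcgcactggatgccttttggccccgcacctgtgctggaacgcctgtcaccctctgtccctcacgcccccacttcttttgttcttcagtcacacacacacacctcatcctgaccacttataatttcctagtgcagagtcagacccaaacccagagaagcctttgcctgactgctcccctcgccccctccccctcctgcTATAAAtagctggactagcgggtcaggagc
Gabrb1, second start, chr5:71699682-71699931, plus strand: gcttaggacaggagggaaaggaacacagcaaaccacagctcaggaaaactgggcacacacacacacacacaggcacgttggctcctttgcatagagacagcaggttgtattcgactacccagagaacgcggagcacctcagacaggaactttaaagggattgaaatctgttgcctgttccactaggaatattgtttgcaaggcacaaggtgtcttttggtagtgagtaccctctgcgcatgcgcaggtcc
The Gabrg3 window held 1 GC box, 9 CpG pairs and 60.4% G or C. The first Gabrb2 window held 1 GC box, 1 TATA box and 8 CpG pairs. Of the windows of its other starts, one held 1 CCAAT box and 8 CpG pairs, and the other none of the 3 motifs and 4 CpG pairs. The Gabrb1 window shown held none of the 3 motifs and 6 CpG pairs. That of the first Gabrb1 start, which overlaps Gabra4 and is not shown, also held none, with 18 CpG pairs and 64.4% G or C. Over the same 250 bases of 32851 RefSeq promoters, 32.7% held a GC box, 12.4% a TATA box and 33.8% a CCAAT box, and the median was 6 CpG pairs. A match of letters is a description of the window and not a binding site.

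For neuronal against other cells, mean CPM plus 1 was compared within each plate as a log2 ratio. A gene counted as higher where the ratio was at least 1 on all 3 plates. Gabrg3 had means of 14.4, 25.8 and 30.7 CPM in neuronal cells and 0.0734, 0.0209 and 0.0507 CPM in other cells, giving ratios of 3.84, 4.71 and 4.92 on plates 1, 2 and 3. Gabrb1 had ratios of 1.46, 1.07 and 2.02, from neuronal means of 3.38, 1.12 and 3.06 CPM. By this rule 17.2% of 16081 genes were higher in neuronal cells, and so were both members detected in at least 10 cells. Since no other cell reached 10 CPM for either, both passed that filter through neuronal cells alone, which fixed their direction, and nothing is read from this count. The other 5 members were detected in too few cells. The Gabrb1 call rested on few cells: without its highest cell on each plate it was lost, as it was without plate 1 or without plate 3, where too few cells held it to be tested. Gabrg3 kept its call under each of these.

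Chat, the acetylcholine-making enzyme, marks excitatory enteric neurons among others, and Nos1, the neuronal nitric oxide synthase, marks inhibitory motor neurons. At 10 CPM, 57 cells had Chat without Nos1, 50 had both, 31 had Nos1 without Chat and 66, of which only 17 were neuronal, had neither. Gabrg3 reached 10 CPM in 17.5% of Chat-only cells (10 of 57, interval 8.75 to 29.9%), 38.0% of cells with both (19 of 50, interval 24.7 to 52.8%) and 61.3% of Nos1-only cells (19 of 31, interval 42.2 to 78.2%), and in 1 cell, a neuronal one, of those with neither. This order depends on the rule that sets the classes. When any read counted for Chat, Nos1 and Gabrg3 alike, most cells fell in the double class, and the shares were 50.0% (15 of 30), 44.8% and 44.1% (15 of 34). With the classes kept at 10 CPM, a Gabrg3 read was present in 24 of 57 Chat-only, 27 of 50 double and 22 of 31 Nos1-only cells. With 50 CPM required of Chat, Nos1 and Gabrg3 alike, which resets the classes, the shares were 7.25% (5 of 69), 26.1% (6 of 23) and 44.8% (13 of 29). The classes are spread unevenly over plates, and the order was not the same on each. On plate 2, 3 of 18 Chat-only, 4 of 10 double and 9 of 15 Nos1-only cells had Gabrg3. On plate 3 the counts were 3 of 16, 10 of 18 and 10 of 13. Plate 1 had 4 of 23, 5 of 22 and 0 of 3, so its Nos1-only class was too small to compare.

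On plates 2 and 3 the Nos1-only cells held more Gabrg3. On plate 2 their lowest, median and highest values were 0, 36.3 and 181.2 CPM, against 0, 0.204 and 48.2 CPM in Chat-only cells. Those of plate 3 were 0, 41.0 and 360.4 CPM, against 0, 0 and 76.03 CPM. The ranges overlapped on both plates, since some Nos1-only cells had no read. Mean levels were 50.7 against 5.41 CPM on plate 2 and 61.6 against 8.87 CPM on plate 3, which gave log2 ratios of Chat-only over Nos1-only cells of -3.01 and -2.66. Leaving out any 1 cell kept the ratio between -3.73 and -2.73 on plate 2 and between -3.54 and -1.93 on plate 3. With classes set by any read the ratios were -1.26 and -3.30, and with a pseudocount of 10 CPM they were -1.98 and -1.92. By the rule of at least 1 in size on both plates, Gabrg3 was higher in Nos1-only cells, where 2.8% of 15167 genes were, and Gabrb1 was called in neither direction, where 8.7% of genes were called in one or the other.

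The Gabrg3 difference was not seen on plate 1. When a cell was instead classed by whether Chat or Nos1 exceeded the other by 4 times or more, 5 plate 1 cells were high in Nos1 and could be compared. Gabrg3 was detected in 0 of these 5 and in 6 of 30 cells high in Chat, with means of 0.259 and 16.6 CPM, a log2 ratio of 3.81 in the opposite direction to plates 2 and 3 (-2.23 and -2.77). Under that setting Gabrg3 was no longer called.

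**Figure D3:**
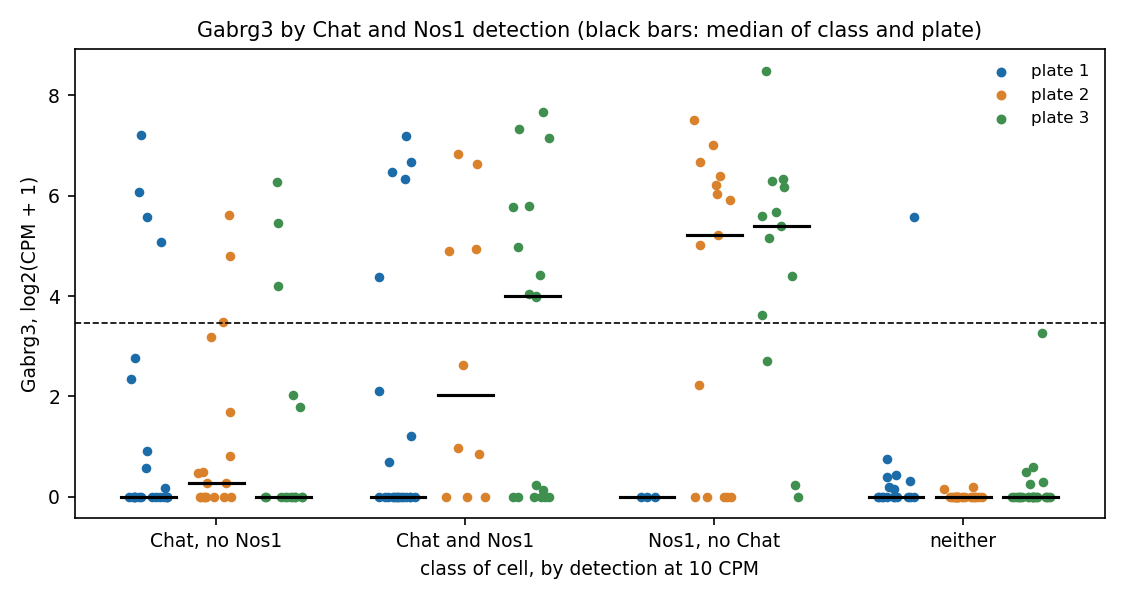
Gabrg3 in every cell as log2(CPM + 1), by Chat and Nos1 detection and by plate, with black bars at the median of each class and plate and a dashed line at 10 CPM. The medians of Nos1-only cells are 36.3 and 41.0 CPM on plates 2 and 3, and all 3 Nos1-only cells of plate 1 are at 0.

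Depth moved with the classes: the median was 4211462 reads in Chat-only and 5233561 in Nos1-only cells on plate 2, and 4986781 and 6885200 on plate 3. When every cell was thinned to 400000 reads and reclassified, Gabrg3 was detected in 9 of 59 Chat-only, 18 of 51 double and 18 of 31 Nos1-only cells, and the log2 ratios were -2.73 on plate 2 and -2.59 on plate 3. Of other cell types, smooth muscle genes were the most frequent, and 6 of the 49 Gabrg3 cells carried that list, against 34 of all neuronal cells, 12 of the 57 Chat-only and 7 of the 31 Nos1-only cells. The glial list was found in none of the 49 and in 7 of all neuronal cells. In cells without a list of another type the ratios were -3.68 and -2.52.

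Gabrb1 was detected in 3 of 57 Chat-only, 6 of 50 double, 1 of 31 Nos1-only cells and 1 of 66 with neither, with log2 ratios of Chat-only over Nos1-only cells of 1.75 on plate 2 and 0.19 on plate 3. Without 1 cell the plate 2 ratio fell to 0.23. Gabrb2 was detected in 4 of 31 Nos1-only cells and in none of the 57 Chat-only cells, too few for a call. Its ratios were -1.39 on plate 2 and -1.69 on plate 3. Without 1 cell they weakened to as little as -0.19 and -0.94. In 4 Chat-only cells Gabrb2 reads were present below 10 CPM. The 9 cells with an alpha member were 4 Chat-only, 3 double and 2 Nos1-only cells, so the alpha transcripts were found in each of these classes.

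By Slc17a6, the gene behind the reporter, Gabrg3 and Gabrb1 had unlike counts when plates were pooled, and the other members were too rare to read. Gabrg3 was detected in 20 of the 89 neuronal cells with Slc17a6 and in 29 of the 64 without it. By plate the counts were 9 of 44 and 1 of 11 on plate 1, 4 of 20 and 12 of 24 on plate 2, and 7 of 25 and 16 of 29 on plate 3, so the higher share without Slc17a6 was seen on plates 2 and 3 and not on plate 1. Gabrb1 was detected in 10 of 89 with and 1 of 64 without. Its shares were alike on plate 1, with 5 of 44 and 1 of 11. They were 1 of 20 and 0 of 24 on plate 2, and 4 of 25 and 0 of 29 on plate 3. Gabrb2 was detected in 0 of 89 with and 4 of 64 without. By plate these were 0 of 20 and 2 of 24 on plate 2, and 0 of 25 and 2 of 29 on plate 3. Plate 1, which held 44 of the 89 cells with Slc17a6, had Gabrb2 in no cell. Gabra2 was detected in 3 with and 1 without, Gabra5 in 2 and 1, Gabra3 in 0 and 2, and Gabra4 in neither.

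Whether the 3 subunit classes met in single cells was then counted. Among neuronal cells, 9 had an alpha, 15 a beta and 49 a gamma member at 10 CPM. No cell had all 3, which allows a share of up to 1.96%, while multiplying the single shares gives 0.283 cells, so that few or none would be found if the transcripts were unrelated. An alpha and a beta member met in 1 cell against a product of 0.882, an alpha and the gamma member in 2 against 2.88, and a beta and the gamma member in 6 against 4.80. In all, 55 cells had 1 member, 9 had 2 and none had 3 or more. Gabrg3 was without an alpha or beta member in 41 of its 49 cells.

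The 9 cells with 2 members were named one by one. Gabrb2 met Gabrg3 in 4 Nos1-only cells, at 12.0 and 73.2 CPM, and 37.1 and 181.2 CPM, in 2 cells of plate 2, and at 18.6 and 80.03 CPM, and 11.7 and 50.1 CPM, in 2 cells of plate 3. The product of the single shares for this pair is 1.28 cells over all plates, and 0.727 on plate 2 and 0.852 on plate 3. These products take no account of class, and 19 of the 31 Nos1-only cells had Gabrg3. Gabrg3 was the higher of the pair in each of these cells, also per kilobase of exon. Gabrb1 met Gabrg3 in 2 cells with both Chat and Nos1, at 17.3 and 19.7 CPM on plate 1 and at 65.0 and 20.4 CPM on plate 3, against a product of 3.52 cells. Counting any read, Gabrg3 met Gabrb2 in 6 neuronal cells and Gabrb1 in 15, against products of 4.03 and 14.1.

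The alpha members met another member in 3 cells, all on plate 3. A Chat-only cell had Gabra2 at 119.5 and Gabrg3 at 43.1 CPM. A Nos1-only cell had Gabra3 at 21.2 and Gabrg3 at 20.2 CPM. A cell with both Chat and Nos1 had Gabra2 at 51.6 and Gabrb1 at 40.7 CPM. The remaining 6 alpha cells held an alpha member alone: 4 on plate 1 and 2 on plate 2. Of the 9 cells with 2 members, 3 also carried a list of another cell type (smooth muscle, fibroblast or epithelial). Whether any of these libraries came from 2 cells picked together was not tested.

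**Figure D4:**
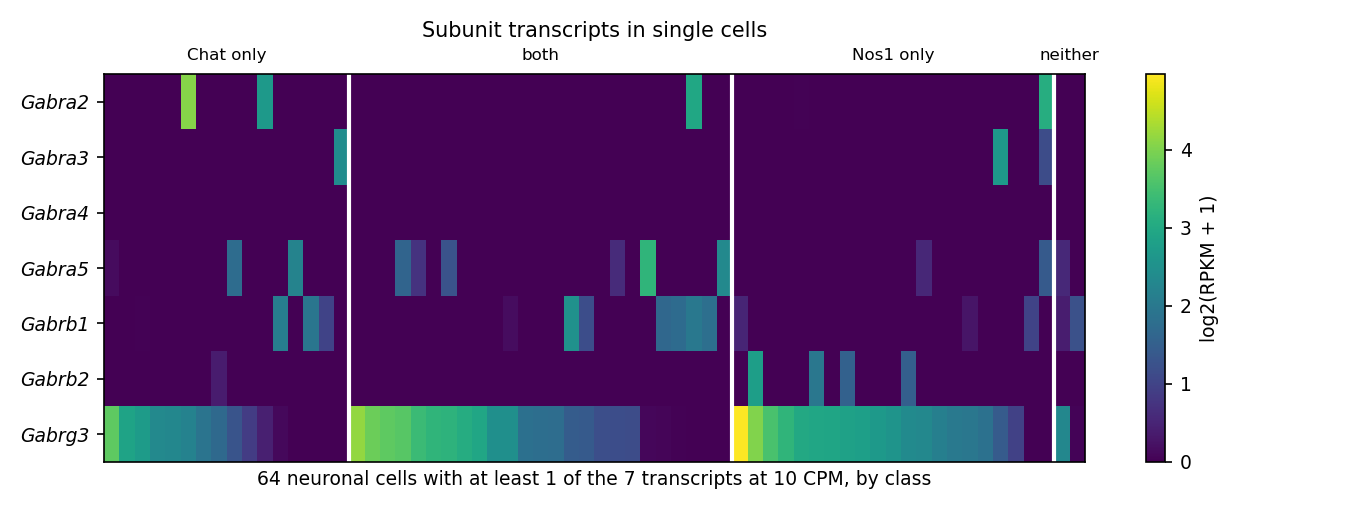
The 64 neuronal cells with at least 1 of the 7 transcripts at 10 CPM (columns), grouped by Chat and Nos1 detection, with colour for log2(RPKM + 1) of each gene (rows). Gabrg3 fills most columns, and 41 of its 49 cells have no alpha or beta gene of these 7 at 10 CPM. The 4 cells with Gabrb2 at 10 CPM lie in the Nos1-only block.

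The count for the 7 members does not describe the whole receptor family. The table holds 6 alpha, 3 beta and 3 gamma subunit genes, and over all 12 of these genes a cell with an alpha, a beta and a gamma transcript was found 6 times among the neuronal cells (3.92%, interval 1.45 to 8.34%), against a product of 3.73. An alpha transcript of any kind was detected in 11 neuronal cells (7.19%, interval 3.64 to 12.5%). A beta and a gamma transcript with no alpha transcript was the commoner state, in 53 cells (34.6%, interval 27.1 to 42.7%), and 27 cells (17.6%) had none of the 12. Only 2 of the 49 Gabrg3 cells had an alpha transcript of any kind at 10 CPM. The threshold decides this in part: at 1 RPKM 9 neuronal cells had all 3 classes, and counting any read 22 had, against a product of 19.8.

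The remaining genes of GABA signalling were read from fixed lists. By the rule used above, 17.2% of all genes were higher in neuronal cells. A gene found at 10 CPM in fewer than 10 other cells passed the filter only with the help of neuronal cells. Nothing is read from the higher call of such a gene. Of the other 12 GABA-A subunit genes, 3 could be compared between neuronal and other cells, and 2 of these were higher in neuronal cells, with a median log2 ratio for the 3 of 2.89 against 0.36 over all 16081 genes. Of these 3, 1 was higher in Nos1-only than in Chat-only cells. Gabrr2, a rho subunit that can form channels without other classes, was detected in 17 neuronal cells (11.1%) and 3 other cells and was called in neither comparison. Both subunit genes of the GABA-B receptor, a G protein-coupled receptor that works as a pair, were higher in neuronal cells. Gabbr1 was detected in 95.4% of neuronal cells and in 25 of the 51 others, with log2 ratios of 3.25, 3.25 and 2.71. Its partner Gabbr2 was detected in 28 (18.3%) and in none of the 51, so it passed the filter through neuronal cells alone and its call is not read.

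Genes that make or load GABA were rare, and genes that break it down were found in more cells. Of 9 such genes, 2 were detected in enough cells to compare and 1 was higher in neuronal cells, Aldh5a1, the last enzyme of GABA breakdown, found in 61 neuronal cells (39.9%) and 3 others. Abat, the GABA transaminase, was found in 58 neuronal and 4 other cells. The GABA-making enzyme genes Gad1 and Gad2 were detected in 5 and 2 neuronal cells, and the vesicular GABA transporter gene Slc32a1 in 3. The last 3 genes were named after their values were seen.

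Genes of receptor anchoring, assembly and trafficking were widely present. Of the 20 measured, 8 were higher in neuronal cells and none lower (background 17.2% higher and 4.96% lower), with a median log2 ratio of 1.72. The 4 found in most neuronal cells were Gabarap (99.3% of them), Gabarapl1 (98.7%) and Gabarapl2 (97.4%), of the family named for binding to GABA-A receptors, and Ubqln1 (94.1%), a ubiquitin-like protein. Of those, Gabarapl1 was higher in neuronal cells. The others of the 8 higher genes were found in fewer than 10 other cells, so nothing is read from the count of 8. Gphn, the scaffold gephyrin of inhibitory synapses, and Lhfpl4, a membrane protein associated with GABA-A receptors, were named after their values were seen. Gphn was detected in 69.9% of neuronal and 25.5% of other cells and was not called. Lhfpl4 was detected in 81.7% and 1.96%, with log2 ratios of 5.87, 5.77 and 4.20. Of 19 genes compared between the classes, 4 were higher in Chat-only cells (Plcl1, Hap1, Mdga1 and Slitrk3) and none in Nos1-only cells, where 5.91% and 2.8% of all genes were.

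Of 6 chloride transport genes, 1 was higher in neuronal cells, the chloride-proton exchanger gene Clcn3 (137 neuronal and 25 other cells), a share close to the 17.2% of all genes. Slc12a2, which encodes the chloride importer NKCC1, was detected in 64 neuronal cells (41.8%) and 20 of 51 others, and Slc12a5, which encodes the exporter KCC2 and was named after its values were seen, in 23 (15.0%) and 1. Between the classes, Slc12a2 and Slc12a7 were higher in Chat-only cells, where 5.91% of all genes were. Of the 3 neurosteroid and benzodiazepine-site genes compared, none was called in either comparison. Of the glycine receptor genes, which encode the related chloride channel, 2 of 5 were detected in enough cells. Both were higher in neuronal cells, against 17.2% of all genes. Both were found in fewer than 10 other cells, so nothing is read from this count. Glrb was found in 72.5% of neuronal cells and in 1 other cell. Glra1 was found in 15 neuronal and 2 other cells, and in 12 of 57 Chat-only against 0 of 31 Nos1-only cells. It was called higher in Chat-only cells, as were 5.91% of all genes. Without Chat-only cells it would not have passed the filter of 10 neuronal cells, so nothing is read from this call.

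The genes most like Gabrg3 were ranked by Spearman correlation of log2(CPM + 1), centred within plates, over the neuronal cells and 12594 genes, as a description. Spns2, a sphingosine-1-phosphate transporter gene, came first at 0.46 and was detected in 21 of the 49 Gabrg3 cells. Synm, an intermediate filament gene, also reached 0.46 (41 shared cells), and Zfp536, a zinc finger gene, 0.45 (22 shared cells). Nos1 reached 0.45 and Chat -0.16, and the reads of the cell 0.26, so these values share depth. With ranks taken within each plate instead, a setting added after the values were seen, Syt2, a synaptotagmin gene, came first at 0.43, and Spns2, Synm, Zfp536 and Nos1 had 0.30, 0.38, 0.33 and 0.33. The median over all genes was 0.049 with centring and 0.059 with ranks. For Gabrb1 the leading genes Slc47a1, Fignl1 and Kcnh3 had 0.60, 0.57 and 0.56 with centring, from 3, 2 and 4 shared cells, and 0.17, 0.14 and 0.13 with ranks, because centring gives cells at 0 a value that differs by plate.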

How the data were processed

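The authors deposited 1 value per gene and cell, on a scale read from the values as log2(RPKM + 1). The mm10 build is named in the submitters' processing notes. Of the aligner, the counter and the strand setting, none is given in the sources used here. A column was tied to its cell through the cell number, or on plates 2 and 3 the sequencer index, that both carry. Undoing the log and multiplying by GENCODE M21 exon length (31316 genes) or by the smallest length giving whole reads (6319 genes) and by total reads gave whole reads, within 1e-04, for 100% of 2375655 values above 0. On 20 simulated cells this returned 99.996% of 470832 values. The library kit, per the labels' protocols, has no molecular identifiers, so the values count reads. All 204 cells were kept, and no doublet caller was run. Of 6846 pairs of cells within plates, the lowest chi-square per degree of freedom was 5.51, so no pair agreed within sampling noise.

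CPM, shares, log2 ratios of mean CPM (pseudocount of 1 CPM) and rank correlations were computed with pandas 2.3.3 and scipy 1.17.1 in python 3.11.15. The ratio understates differences of low genes. A gene was compared where it reached 10 CPM in at least 10 cells, and classes where a plate had at least 5 cells of each. The limit given beside a share of 0 is 3 cells of the total. The pan-neuronal list holds Stmn2, Stmn3, Snap25, Uchl1, Elavl2, Elavl3, Elavl4, Tubb3, Syt1, Prph, Nefl, Nefm and Gap43. Named genes are the 7 members, at most the 4 genes of each list found in most neuronal cells, and the 3 genes most like each member found in at least 10 neuronal cells. Plcl1, Hap1, Mdga1, Slitrk3 and Slc12a7 were named beyond these rules, after their values were seen, because they were called between the classes. The members and lists were chosen with earlier results of these data known. Some genes picked by these rules are not reported here. Promoter sequences are from RefSeq (GRCm38.p6), where all 7 members matched. Alternatives were the threshold, depth, neuronal rule, other cell types' RNA, plates, pseudocount, filter and class rule.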

Additional observations from a re-analysis of the deposited data

How the results depend on the processing

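No paired analysis was possible because the results come from no test and the numbers in the labels only name cells. The share of neuronal cells with any member was 69.3% counting any read and 19.6% at 50 CPM, against 41.8% at 10 CPM. The share of other cells with any member was 0% at 10 CPM and 23.5% counting any read. The share with an alpha and a beta member was 0.654%, and it was 3.92% counting any read, 0% at 50 CPM and 0% without plate 3. The share with an alpha, a beta and a gamma member was 0% at 10 CPM and 1.96% counting any read (3 cells). Members higher in neuronal cells were 2, and 1, Gabrg3, at 50 CPM, with 75% of the pan-neuronal list required, in cells without a list of another type (plates 2 and 3 only), without plate 1, without plate 3, with a pseudocount of 10 CPM, without the highest cell and with the mean of log2(CPM + 1). Members that differed between Chat-only and Nos1-only cells were 1, and 2 where counts at or under 1% of a plate's highest were set aside (with Gabrb1), 2 with no filter (with Gabrb2) and 0 with classes set by a ratio of 4, which brings in plate 1. Of the 70 alternative values of these results, 53 stayed within 1.5 times or within their interval. The Gabrg3 share was higher in Nos1-only than in Chat-only cells at 10 CPM (61.3% and 17.5%). It was lower when any read counted for Gabrg3 and also set the classes (44.1% and 50.0%). The Gabrg3 ratio on plate 1, with classes set by a ratio of 4, was 3.81 where plates 2 and 3 had -2.23 and -2.77. The alternatives on single members by cell status, on class shares and on ranks were chosen after seeing the data. At 10 CPM the shallowest cell gives fewer than 5 reads, so an absent transcript may have been missed.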
